A study of Mus musculus with 12 samples.

Results

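Pan-lysine-crotonylation (pan-Kcr) peaks were examined at 7 long noncoding RNA genes that are abundant in brain, namely Neat1, Malat1, Meg3, Rian, Mirg, Miat and Snhg11, out of 49943 RefSeq genes on chromosomes 1 to 19, X and Y. The 7 were chosen by name with earlier results of the same peak lists known, and the measured value behind that choice was the width and position of a learning peak beside Neat1. Every peak that reached a gene body or the 10 kb on either side of it (its window) was taken. All 7 symbols matched the GRCm38.p6 gene table, and 12727 genes of that table are long noncoding RNA genes.

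The data are chromatin immunoprecipitation sequencing of C57BL/6J mouse dorsal hippocampus with an antibody that binds crotonylated lysine on any protein. One library came from mice trained in spatial object recognition (learning) and one from untrained mice left in the home cage (homecage). Each condition is thus 1 library, whether animals were pooled is not given in the sources used here, and no difference below has a replicate check or a p-value. In bulk tissue, fewer cells that carry the mark and less of the mark per cell cannot be told apart. The labelled tissue could not be checked against marker genes, because peak positions carry no expression level.

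Long noncoding RNAs act as transcripts and are not translated. Malat1 gathers in nuclear speckles, bodies rich in splicing factors, and Neat1 is the RNA scaffold on which paraspeckles assemble. Meg3, Rian and Mirg are transcribed from the maternal copy of the imprinted Dlk1-Dio3 domain, and Rian and Mirg host small nucleolar RNAs and microRNAs. Miat, also called Gomafu, is a nuclear RNA of neurons, and Snhg11 is a small nucleolar RNA host gene. Lysine crotonylation is an acylation found on histones, where it is associated with active regulatory chromatin.

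The whole lists differ greatly in length. On the assembled chromosomes the learning list held 16002 peaks (6.01 per Mb) and the homecage list 331236 (124 per Mb), 20.7 times as many. The files hold no peak strength and no read counts, so the depth behind each list is unknown. A peak present in one list and missing from the other is therefore a statement about the called lists.

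Both libraries had peaks at Malat1 and Neat1, and only the homecage library had any at the other 5 genes. The learning library had 4 peaks in the Neat1 window and 6 in the Malat1 window, and 0 at Meg3, Rian, Mirg, Miat and Snhg11. The homecage library had 12 peaks at Neat1, 10 at Malat1, 7 at Rian, 6 at Mirg, 5 at Meg3, 4 at Snhg11 and 3 at Miat. Genes with a learning peak were thus 2 of 7, against 24.8% of all genes and 21.4% of the 6397 long noncoding RNA genes in the length range of the members (6983 to 57772 bp). A homecage peak was found at 7 of 7, against 92% of all genes and 96.5% of that class. Neither count stands apart from its background, and the rest of this account concerns where the peaks lay. Within the gene bodies alone, 1 of 7 (Neat1) had a learning peak, against 13.9% of all genes and 10.9% of the class, and 7 of 7 had a homecage peak, against 56.7% and 85.1%. The other 9 learning peaks lay beside the genes.

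**Figure D1:**
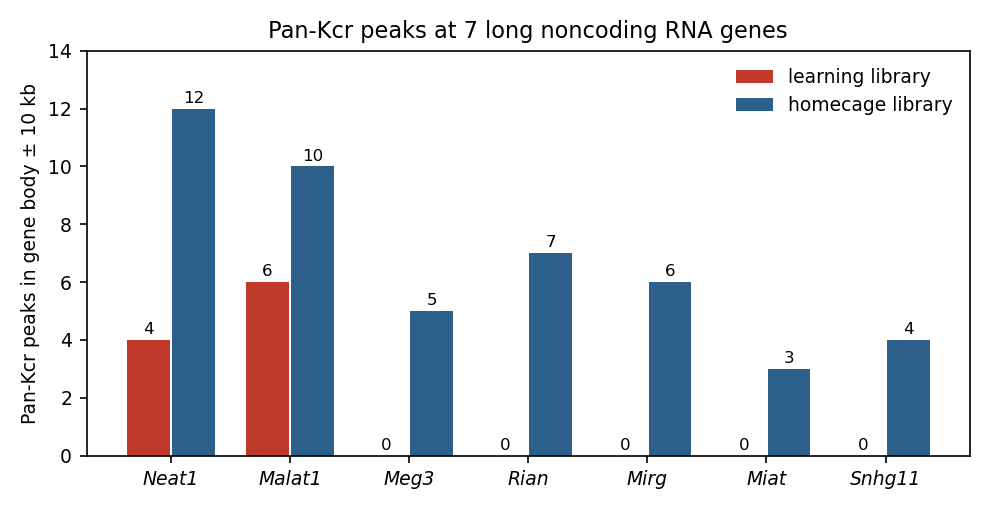
Number of pan-Kcr peaks (vertical axis) in the gene body and 10 kb on either side of each of the 7 genes, in the learning library (red) and the homecage library (blue), 1 library each. The 10 learning peaks sit at Neat1 (4) and Malat1 (6), while homecage peaks number 3 to 12 at each gene.

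The sequences that carry these positions came from RefSeq tables of GRCm38.p6. Promoter stretches, 250 bases before to 50 bases after a transcription start, were listed for 6 of the 7 genes. Those of Malat1 and Snhg11 are shown because a homecage peak reached into them, and the capitals mark the bases under that peak. The Malat1 stretch lies at chr19:5802623-5802922 on the minus strand and the Snhg11 stretch at chr2:158375463-158375762 on the plus strand.
Malat1 promoter: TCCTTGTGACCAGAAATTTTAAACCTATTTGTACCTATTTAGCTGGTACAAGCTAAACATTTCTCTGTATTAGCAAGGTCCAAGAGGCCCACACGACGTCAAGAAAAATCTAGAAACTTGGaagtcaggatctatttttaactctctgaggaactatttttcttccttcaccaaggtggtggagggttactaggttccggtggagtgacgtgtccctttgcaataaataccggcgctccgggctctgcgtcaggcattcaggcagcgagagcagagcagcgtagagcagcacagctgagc
Snhg11 promoter: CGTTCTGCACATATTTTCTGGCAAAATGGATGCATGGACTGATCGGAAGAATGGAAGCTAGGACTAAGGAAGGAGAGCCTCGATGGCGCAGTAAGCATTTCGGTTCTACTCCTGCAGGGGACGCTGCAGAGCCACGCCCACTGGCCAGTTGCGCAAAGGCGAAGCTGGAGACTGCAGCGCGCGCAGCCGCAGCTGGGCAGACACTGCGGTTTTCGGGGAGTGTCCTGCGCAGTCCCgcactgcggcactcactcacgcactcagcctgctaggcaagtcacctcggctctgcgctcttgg
The mature microRNAs of Mir381 are shown because its hairpin (chr12:109726822-109726896, plus strand) was the one microRNA hairpin in the windows that lay under a peak. Capitals mark the seed, bases 2 to 8.
mmu-miR-381-5p: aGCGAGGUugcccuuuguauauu
mmu-miR-381-3p: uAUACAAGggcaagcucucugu

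Malat1 (chr19:5795690-5802672, 6983 bp) is transcribed from the minus strand, so its start is the end with the higher coordinate. All 6 learning peaks lay upstream of that start, between 416 and 9335 bp from it, and none lay in the gene body. From the start outwards they were 352 bp wide (chr19:5803088-5803439), 195 bp (chr19:5806000-5806194), 500 bp (chr19:5806794-5807293), 146 bp (chr19:5808067-5808212), 1216 bp (chr19:5809511-5810726) and 226 bp (chr19:5811782-5812007). The set thus spans the range of the learning list, from its minimum width of 146 bp to a peak wider than 99.3% of the list. A homecage peak overlapped each of the 6.

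Of the 10 homecage peaks at Malat1, 7 lay upstream of the start, 1 in the gene body and 2 beyond the 3′ end. The widest, 1942 bp (chr19:5805206-5807147, wider than 99.8% of the homecage list), lay 2534 bp upstream and covered the sites of 2 learning peaks in part or whole. The homecage peak nearest to the start was 597 bp wide (chr19:5802802-5803398), began 130 bp upstream and covered 121 of the 300 promoter bases printed above. The learning peak nearest to the start overlapped this homecage peak by 311 bp but ended outside the printed stretch. One homecage peak of 941 bp (chr19:5797964-5798904) lay inside the gene, from 3768 to 4708 bp after the start, where the learning list had none. Mascrna, the small tRNA-like RNA cut from the 3′ end of the Malat1 transcript, was under no peak of either list.

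Neat1 (chr19:5824708-5845480, 20773 bp) had learning peaks on both sides and 1 inside. No strand or promoter stretch was listed for Neat1, so its ends are named by coordinate and its transcription start is not placed. The widest learning peak was 2691 bp (chr19:5847404-5850094). It lay 1924 bp outside the higher-coordinate end of Neat1 and 880 bp short of Frmd8, the adjacent protein-coding gene. It ranked 4th by width in the learning list and took up 49.0% of the 5493 bp between the genes. This peak was among the values by which the genes were chosen and is given as a description. In the homecage library the same stretch held 3 separate peaks of 1156, 291 and 681 bp, which together lay under 67.5% of the learning peak.

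Inside Neat1, a learning peak of 293 bp (chr19:5844594-5844886) lay wholly within a homecage peak of 1566 bp (chr19:5843562-5845127). The homecage peak was the widest of the 5 inside the gene, and the other 4 were 177 to 510 bp wide with no learning peak over them. On the side of Malat1, a learning peak of 298 bp (chr19:5822614-5822911) overlapped a homecage peak of 439 bp, 1636 bp from the gene. The fourth learning peak, 663 bp (chr19:5814048-5814710), entered the Neat1 window by 3 bp and covered a homecage peak of 457 bp that lay 187 bp outside it. Just outside the limit, the next learning peak was the 226 bp peak already counted at Malat1, 2701 bp beyond the Neat1 window.

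**Figure D2:**
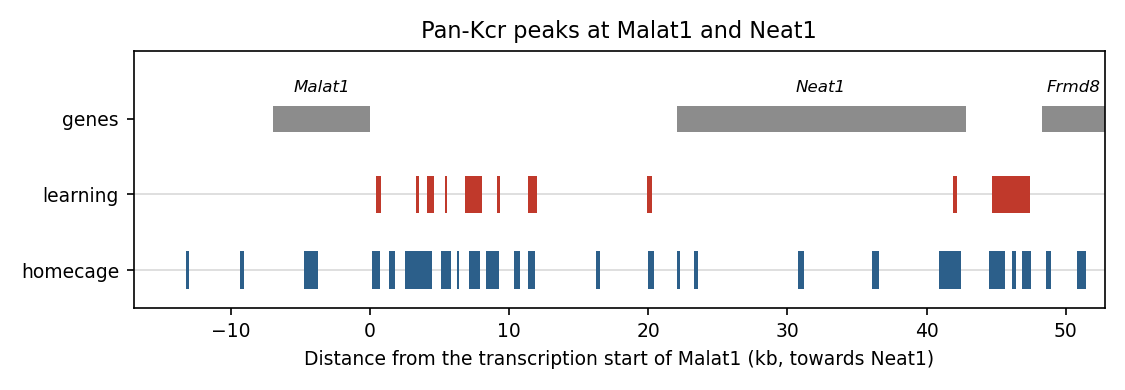
Pan-Kcr peaks of the learning (red) and homecage (blue) libraries, drawn to scale by distance in kb from the Malat1 transcription start (horizontal axis), with gene bodies in grey and Frmd8 cut at the edge of the map. Of the 10 learning peaks, 8 lie between the Malat1 and Neat1 bodies, 1 inside Neat1 and 1 between Neat1 and Frmd8, and each lies over a homecage peak.

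Malat1 and Neat1 are 22035 bp apart, and the peaks around both were also counted over 1 joint region. The 10 learning peaks were not spread evenly over it. A stretch of 21682 bp, most of it in Neat1, held none. This stretch parted the 8 between the gene bodies from the 2 at the higher-coordinate end of Neat1. From 10 kb below Malat1 to 10 kb above Neat1, a region of 69.8 kb, the learning library had 10 peaks (143 per Mb) and the homecage library 24 (344 per Mb). In the adjoining 100 kb there were 4 learning and 13 homecage peaks on the side of lower coordinates, and 2 learning and 24 homecage peaks on the side of higher coordinates. The learning density thus fell to 40 and 20 per Mb outside the region, still above the 6.12 per Mb of chromosome 19, and the homecage density to 130 and 240 per Mb, against 134 for the chromosome. When all chromosomes were divided into 39018 bins of the same length, 72.8% held no learning peak and 0.231% held at least 10, with a maximum of 28. The bins were laid without regard to peaks and the region was not, so this share describes how rare such a density is and is not a test.

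**Figure D3:**
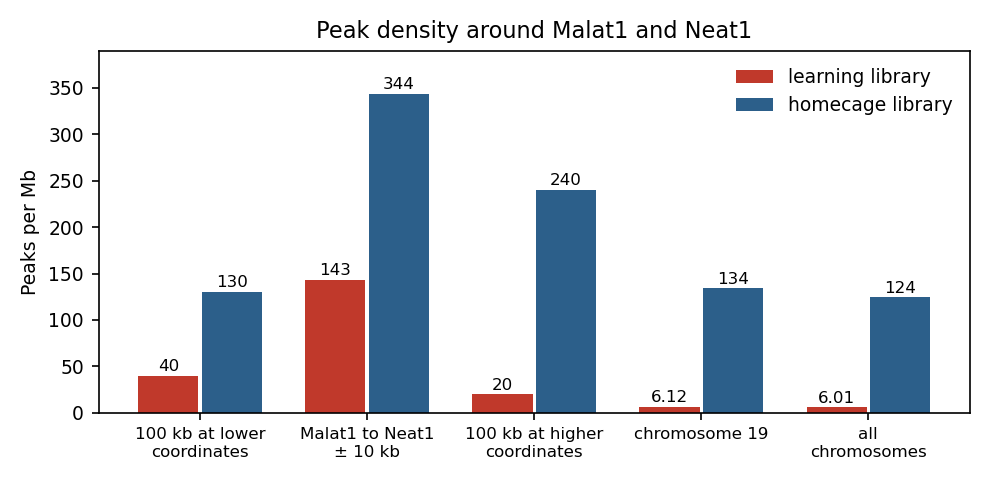
Peaks per Mb (vertical axis) in the learning (red) and homecage (blue) libraries for the Malat1 to Neat1 region, the 100 kb on each side, chromosome 19 and all chromosomes. The region holds 143 learning and 344 homecage peaks per Mb, above every other bar of the same colour.

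Among the 6397 long noncoding RNA genes of similar length, at least as many learning peaks per Mb of window as at Malat1 (222) were found at 0.156%, and as at Neat1 (98.1) at 0.688%. For homecage peaks the shares were 0.594% at the density of Malat1 (371 per Mb, exact Poisson 95% interval 178 to 682) and 2.33% at that of Neat1 (294, 152 to 514). A learning peak as wide as the 1216 bp peak of Malat1 was present at 0.203% of these genes, and one of 2691 bp or more at 1 gene (0.0156%), Neat1 itself, which was chosen by that peak. The learning shares come from the list that guided the choice of genes. The homecage shares are not independent of that choice, since earlier results of both lists were known. Homecage peaks also overlap the learning peaks of this locus. All these shares are descriptions from which nothing is read.

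All 10 learning peaks at Malat1 and Neat1 overlapped a homecage peak by at least 1 bp (100%, exact Clopper-Pearson 95% interval 69.2 to 100%), against 43.1% of all learning peaks. Homecage peaks covered 20.6% of the bases of the 2 windows, against 5.01% of all chromosomes, and the part of this cover in the overlap was not tested. When the overlap had to reach 50% of each peak, 4 of the 10 (40%) were shared. The share of all learning peaks under this stricter rule is not given here, and the 43.1% is not its background. In the other direction, over the windows of all 7 members, 10 of 47 homecage peaks overlapped a learning peak (21.3%, 10.7 to 35.7%), against 2.05% of all homecage peaks. They comprised 10 of 22 at Malat1 and Neat1, the members with learning peaks, and 0 of 25 at the other 5. The homecage list held 4.7 times as many peaks as the learning list over the 7 windows and 20.7 times as many over all chromosomes. The learning peaks behind these values lie close together in 1 region and include the peak that guided the choice of genes. The intervals treat the peaks as independent and cover counting error only. These shares and ratios are therefore descriptions from which nothing is read.

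Meg3, Rian and Mirg lie in this order on the plus strand of chromosome 12, and the learning library had no peak in any of their windows, 163 kb in all. At the mean density of the learning list, 0.980 peaks would fall in that length, and 1.38 in the 229 kb of all 5 windows without one. A count of 0 allows up to 3 peaks (18.4 per Mb in the first case), so a density below the mean of 6.01 per Mb was not detectable. The homecage library had 18 peaks there, beside 20.3 at its mean density. The absence reached well past the genes. The nearest learning peak, 371 bp wide (chr12:109400930-109401300), lay 139696 bp before Meg3, 202645 bp before Rian and 333681 bp before Mirg, on the far side of Dlk1. The stretch without a learning peak that holds all 3 genes measured 706 kb and contained 83 homecage peaks. By count, 3.08% of the stretches between learning peaks were at least this long, with a median of 73.1 kb. Stretches of at least this length made up 26.6% of the span of all chromosomes, so a position inside one was not unusual over that span. The span includes chromosome X, which held 0.716 learning peaks per Mb and on which no member lies. The share without chromosome X is not given here.

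Meg3 (chr12:109540996-109571729) had its 5 homecage peaks in the gene body, the first 18714 bp after the start, and none at either of its 2 listed promoter stretches. The widest was 664 bp (chr12:109564233-109564896), and the other 4 were 147 to 239 bp. The last pair, 239 and 147 bp, also lay in Rtl1, a retrotransposon-derived gene annotated over the end of Meg3. All 5 thus lay in the later part of the gene, and the 664 bp peak was wider than 88.4% of the homecage list.

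Rian (chr12:109603945-109661716, the longest member at 57772 bp) had 5 homecage peaks in the gene and 2 within 3120 bp upstream of its start. The widest was 722 bp (chr12:109622835-109623556), followed by 669 bp (chr12:109641694-109642362) and 583 bp (chr12:109602143-109602725, upstream and inside Rtl1). None of the 11 small nucleolar RNA genes in Rian lay under a peak of either list, against 6.57% of all small nucleolar RNA genes under a homecage peak and 0.821% under a learning peak. The last homecage peak ended 38417 bp after the start, and from there to the end of the window neither list had a peak.

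Mirg (chr12:109734981-109749458) had 2 homecage peaks in the gene, of 184 and 216 bp, 3 before its start and 1 beyond its end. The widest, 894 bp (chr12:109726373-109727266, wider than 95.4% of the homecage list), ended 7715 bp before the start and covered the hairpin of Mir381, one of the microRNAs of the cluster to which Mirg belongs. Of 29 microRNA genes in the windows of the members, this was the 1 under a homecage peak (3.45%), against 8.96% of all hairpins, and none was under a learning peak, against 1.49%. Between the windows of Rian and Mirg, outside both and so not counted above, 15 homecage peaks lay in 53.3 kb (282 per Mb), the densest homecage stretch of this locus among the 5 intervals compared (3 windows and the 2 gaps between them), and there too the learning library had none.

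Miat (chr5:112213228-112228948, minus strand) had the fewest homecage peaks of the 7. Peaks of 309 bp (chr5:112222502-112222810) and 147 bp (chr5:112215726-112215872) lay in the gene, from 6138 to 6446 bp and from 13076 to 13222 bp after the start, and 1 of 206 bp (chr5:112235748-112235953) lay 6800 bp upstream. The promoter stretch was free of peaks. The nearest learning peak was 434 bp wide, 68111 bp away and inside Tpst2, and the stretch without a learning peak around Miat measured 579 kb with 81 homecage peaks.

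Snhg11 (chr2:158375713-158386474, plus strand) was, with Malat1, 1 of 2 members with a homecage peak in the promoter stretch, out of the 6 with such a stretch. That peak, 309 bp (chr2:158375390-158375698), ended 15 bp before the start and covered 236 of the 300 bases printed above. Of all 32851 RefSeq promoter stretches, 17.9% overlapped a homecage peak and 4.15% a learning peak. The other 3 homecage peaks, of 176, 257 and 291 bp, lay 5093 bp upstream, inside the gene and 3388 bp beyond its end. Neither small nucleolar RNA gene in Snhg11 was under a peak. The nearest learning peak was 285 bp wide, 118219 bp away and inside Adig.

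**Figure D4:**
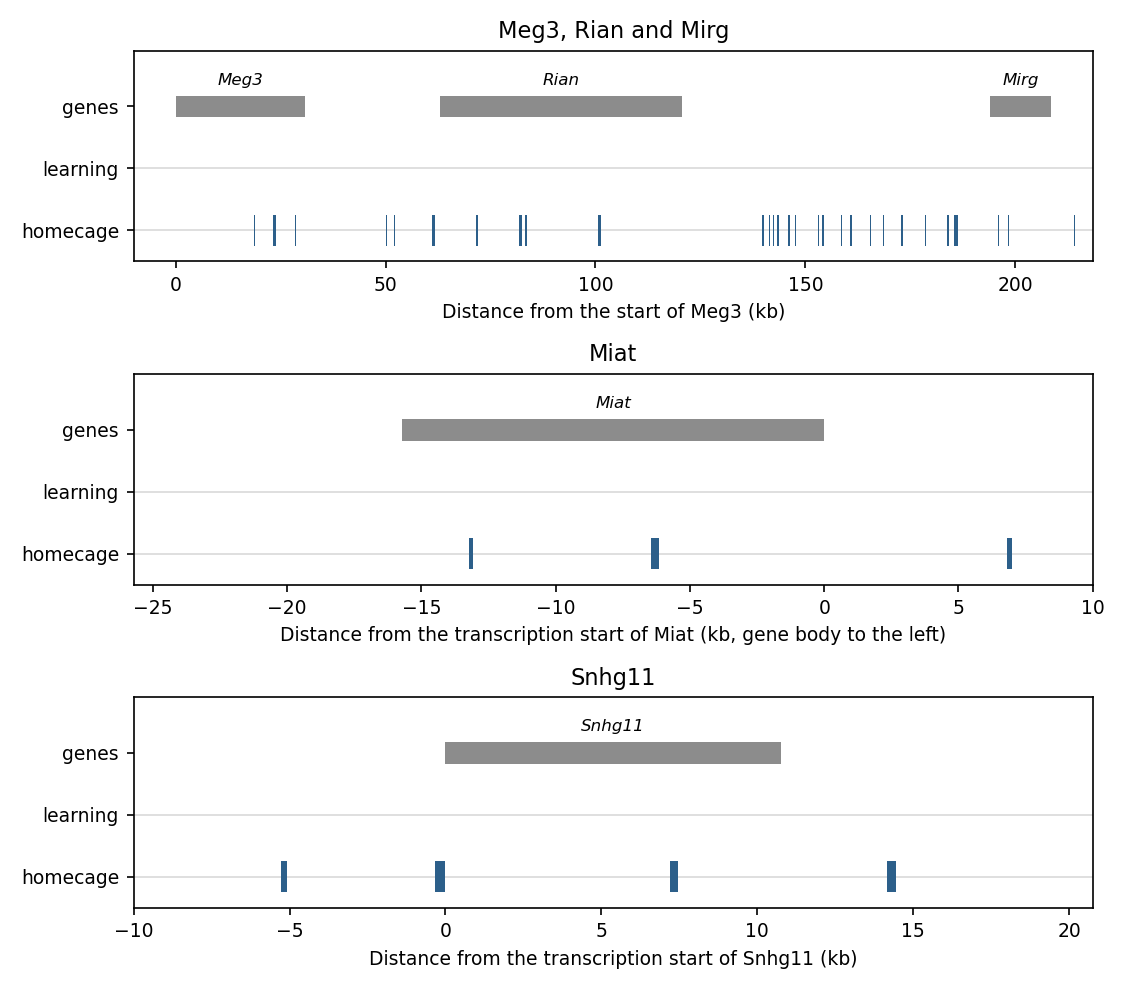
Pan-Kcr peaks of the learning (no bars) and homecage (blue) libraries at the 5 members without a learning peak, drawn to scale by distance in kb from the Meg3, Miat and Snhg11 starts (horizontal axes), with gene bodies in grey. The learning tracks are empty, and the Snhg11 panel shows the homecage peak that ends 15 bp before the start.

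The promoters with a homecage peak lay on both sides of the median base composition. GC content was 60.0% at Snhg11 and 47.0% at Malat1, the pair with a homecage peak, and 64.3% at Miat, 53.7% and 50.3% at the 2 Meg3 stretches, 49.3% at Rian and 51.3% at Mirg, the median of all stretches being 52.7%. The cAMP response element TGACGTCA, a binding site of CREB, was searched on both strands and found in 1 member stretch, the first of Meg3, against 1.79% of all stretches. Its core TGACG, counted on both strands and included in the longer word, occurred 3 times in the Malat1 stretch and 2 times in that of Meg3, and 20.8% of all stretches held it. In the Malat1 stretch the first occurrence, at base 97 from the 5′ end, lay under the homecage peak, and those at bases 206 and 248 did not.

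Ordered by homecage peaks per Mb of window, the members ran from Malat1 and Neat1 to Mirg (174, exact Poisson 95% interval 63.9 to 379), Snhg11 (130, 35.4 to 333), Meg3 (98.6, 32.0 to 230), Rian (90.0, 36.2 to 185) and Miat (84.0, 17.3 to 245). The median of long noncoding RNA genes of similar length was 132. Intervals of neighbours in this order overlapped throughout, as did those of Malat1 and Miat, and they cover counting error only. Homecage widths are given as medians without intervals, resting on 3 peaks at Miat to 12 at Neat1. Single widths overlapped, running from 147 to 1942 bp at Malat1 and from 147 to 309 bp at Miat. A difference in width between members was not tested. The median homecage width was 654 bp at Malat1, 471 bp at Rian and 433 bp at Neat1, compared with 351 bp in the whole list, and 216 bp at Meg3, 200 bp at Mirg, 206 bp at Miat and 274 bp at Snhg11. Miat and Snhg11 had no homecage peak of 500 bp or more, whereas Malat1 had 6, Neat1 5, Rian 3, and Meg3 and Mirg 1 each.

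**Figure D5:**
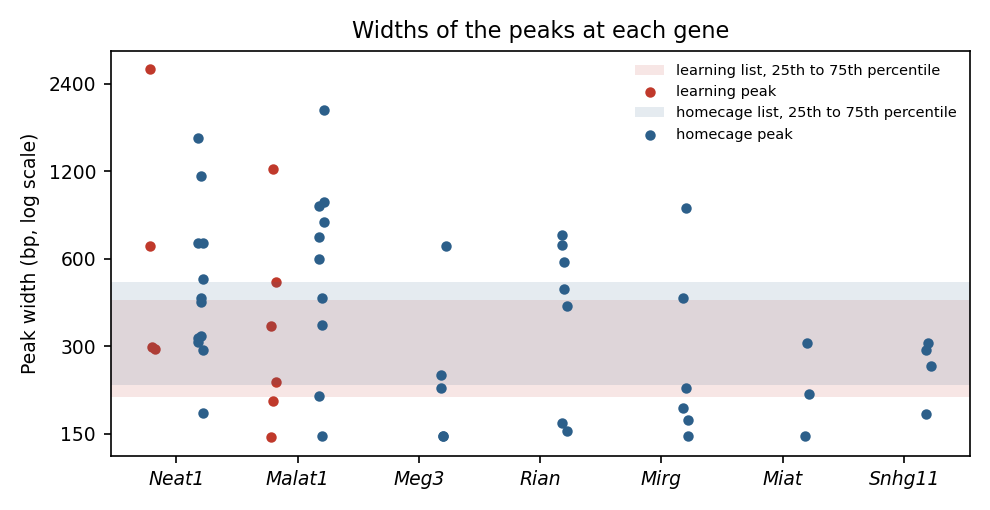
Width in bp (log axis) of each peak at the 7 genes in the learning (red) and homecage (blue) libraries, with shaded bands for the 25th to 75th percentile of each whole list (201 to 432 bp learning, 220 to 498 bp homecage). Peaks above 1000 bp occur at Neat1 and Malat1 in both libraries and at no other member.

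Genes tied to the members by function or position were counted in the same windows. Of 20 paraspeckle protein genes, whose products assemble on Neat1, 10 had a learning peak (50%, median 0.5 peaks) and 18 a homecage peak (median 5), and all 10 had both. The widest learning peaks of this list were at Ewsr1 (1177 bp), Sfpq (723 bp) and Hnrnph3 (556 bp), which encode RNA-binding proteins. Of 20 nuclear speckle protein genes, 11 had a learning peak (55%, median 1) and 20 a homecage peak (median 5), with the widest learning peaks at the splicing factor genes U2af2 (649 bp) and Srsf2 (477 bp) and at Srrm2 (458 bp). Protein-coding genes as a whole had a learning peak at 35.4% (median 0) and a homecage peak at 93.8% (median 6). None of the genes of either list had a learning peak as wide as the widest ones at Malat1 and Neat1, though that of Ewsr1 (1177 bp) came close to the 1216 bp of Malat1. The width at Neat1 guided the choice of genes, so nothing is read from this.

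Other noncoding RNA genes gave a mixed picture. Of 22 further brain noncoding RNA genes, 11 had a learning peak (50%, median 0.5) and 17 a homecage peak (median 6). The 5 without a homecage peak, Xist, Ftx, Jpx, Firre and Cdr1os, are the X-linked genes of the list, and chromosome X as a whole held 0.716 learning and 6.50 homecage peaks per Mb. The widest learning peaks were at the microRNA host genes Mir9-3hg (1057 bp) and Mir99ahg (613 bp) and at Dleu2 (609 bp). Among 17 small nucleolar RNA host genes other than Snhg11, 4 had a learning peak (23.5%, median 0) and 17 a homecage peak (median 4). These 4 were Snhg14, with 34 learning peaks over a gene of 1177441 bp and a widest peak of 1207 bp, Snhg4 (873 bp), Snhg7 (279 bp) and Snhg16 (216 bp). All long noncoding RNA genes together had a learning peak at 21.3% (median 0) and a homecage peak at 95.3% (median 4). Their median length was 8429 bp, beside 46982.5 bp for the 22 brain genes and 2840 bp for the 17 host genes. The part of gene length in these shares was not tested.

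The Dlk1-Dio3 domain was also counted as a whole. Of the 5 other genes examined, Begain, Dlk1, Rtl1, Dio3 and Dio3os, 0 had a learning peak and 5 a homecage peak. Of all genes, 24.8% had a learning peak and 92% a homecage peak. Dlk1 and Rtl1 lie in the stretch without a learning peak that holds Meg3, Rian and Mirg, so their counts repeat that absence. Windows of the 61 microRNA genes of the domain, which overlap one another and share peaks, had no learning peak either, and 60 held a homecage peak. Over the 829 kb from Dlk1 to Dio3 there were 3 learning peaks, beside 4.98 at the mean density, and 104 homecage peaks, beside 103. The 3 learning peaks, of 551, 342 and 278 bp, began 655, 775 and 812 kb after the start of Dlk1, beyond Mirg and towards Dio3. None overlapped a homecage peak, against 43.1% of all learning peaks that did, and 3 peaks are too few to compare.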

How the data were processed

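Pan-Kcr ChIP-seq peak lists of 2 dorsal hippocampus libraries (learning and homecage, assigned by their titles) were used. The 8 single-nucleus libraries and 2 input libraries were not analysed here. Tissue was fixed in 1% formaldehyde and sheared to fragments of 200 to 500 bp, per the labels' protocols. Trimmomatic, BWA and MACS2 (versions not given) and the build mm10, which is GRCm38, are named in the submitters' processing notes. Broad peaks were called at p 0.01 per library, per the peak names. Whether input served as control is not given in the sources used here. The deposited files hold chromosome, start, end and name, with no strength, count or depth.

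Gene bounds, promoters and microRNAs came from RefSeq tables of GRCm38.p6, and coordinates are 1-based. Peaks on chromosomes 1 to 19, X and Y that reached a window by at least 1 bp were counted. Strand was taken from the promoter table. Members and gene lists were chosen with earlier results of these data known. Named were all members, every learning peak in their windows, the widest and the overlapping homecage peaks, and from each gene list the 3 genes with the widest learning peak. Other peaks and Snhg16 were named after their values were seen, as were the intervals of chromosome 12 outside the windows. Alternatives were other flanks, peak centres, a 500 bp minimum, merging within 1 kb, a homecage list shortened by width, and other overlap rules. Counting was tested on simulated peaks. Counts used Python 3.11.15, intervals scipy 1.17.1, tables pandas 2.3.3 with numpy 2.4.6, and figures matplotlib 3.10.9.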

Additional observations from a re-analysis of the deposited data

How the results depend on the processing

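No paired analysis was possible because the compared groups hold 1 library each, and no replicate could be left out. Depth limits every comparison in an unknown way, since the files carry no counts. Of 41 values recomputed over the members, 26 stayed within 1.5 times the value given above (for the shared percentage, within its interval), 15 moved beyond that, and none was a signed difference that could reverse. With gene bodies alone, members with a learning peak fell to 1, learning peaks to 1, homecage peaks to 21 and the share of bases under learning peaks from 1.99% to 0.186%. With 3 kb flanks the last 3 values were 4, 30 and 1.01%. With peaks of at least 500 bp there were 4 learning and 16 homecage peaks, and homecage cover was 4.72% instead of 7.41%. Under this minimum 5 members had a homecage peak and 75% of the member learning peaks were shared, both within the limits above. The widest homecage peaks, as many as the learning list holds, left 3 members with a homecage peak, 6 such peaks (2 at Neat1, 3 at Malat1 and 1 at Mirg) and 2.49% cover, and 50% of the member learning peaks were then shared. Requiring 50% of each peak in the overlap gave 40% shared. For none of these shared percentages is the value over all learning peaks given here. These settings keep fewer bases or fewer peaks by construction. Peak centres, merging within 1 kb and a homecage peak within 1 kb moved none of the values over the members beyond those limits.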
